A study of Mus musculus with 8 samples.

Results

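The genes that write, copy and remove DNA methylation were followed in medullary thymic epithelial cells (mTECs): the DNA methyltransferases Dnmt1, Dnmt3a and Dnmt3b, the catalytically inactive cofactor Dnmt3l, the TET dioxygenases Tet1, Tet2 and Tet3, and Uhrf1, the partner that guides Dnmt1. These 8 genes were chosen by name from 25466 genes in the count table, and all 8 were among the 17006 genes that passed the filter on low counts. RNA-seq had been performed on mTECs of wild-type BL6N6 mice of 4 to 6 weeks of age, which were FACS-isolated as CD45neg EpCAM+ CDR1neg cells and divided by the surface proteins Tspan8 and MHC class II (MHCII). This gave the subsets Tspan8negMHCIIlo, Tspan8negMHCIIhi, Tspan8posMHCIIhi and Tspan8posMHCIIlo, with 2 biological replicates each. No subset carried an engineered allele or had received a treatment, and the sources used here do not say whether mice were pooled or whether equally numbered libraries came from the same mice. Each subset is a sorted mixture of cells, so a change in the share of expressing cells and a change in RNA per cell cannot be told apart.

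DNA methylation in mammals sits mostly on the cytosine of CpG dinucleotides. After replication the new strand is unmethylated, Uhrf1 recognizes such hemimethylated sites, and Dnmt1 copies the mark, while Dnmt3a and Dnmt3b place methyl groups on sites that had none. TET enzymes oxidize 5-methylcytosine, and the oxidized base is then lost through replication or is cut out by the glycosylase Tdg and replaced by base excision repair. mTECs are of interest here because they transcribe a large part of the genome, including genes otherwise restricted to single tissues, and Aire drives many of these genes.

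Levels are given as CPM, the counts of a gene relative to a fixed library size, with library sizes scaled by edgeR's TMM method, and differences as log2 fold changes from edgeR's quasi-likelihood test over all 8 libraries. A call needed both an adjusted p below 0.01, over all genes tested, and a log2 fold change of 1 or more in either direction. Rose, fell, higher and lower in a comparison refer to called genes unless values are given instead.

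The libraries held between 1941518 and 7783841 counts, and the floor of 3 counts was worth between 0.385 and 1.65 CPM. Tspan8 itself lay between 3.65 and 14.6 CPM in the Tspan8neg libraries and between 347 and 404 CPM in the Tspan8pos libraries, and all 11 medullary epithelial markers were above the floor in every library. The summed level of 13 thymocyte markers was 534 and 1520 CPM in Tspan8negMHCIIlo against 80.7 to 259 CPM in the other 6 libraries. Replicate 2 of Tspan8negMHCIIlo thus stood apart. Some calls and list counts are also given without that library, and others that changed without it are not shown. The summed level of 6 cortical epithelial markers was 900 to 1130 CPM in Tspan8negMHCIIlo and 299 to 486 CPM elsewhere. Summed levels of 5 B cell, 7 fibroblast and endothelial and 7 myeloid and dendritic markers ranged from 24.9 to 61.1, from 58.5 to 209 and from 61.2 to 486 CPM. The part of such cells in the levels below was not tested.

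Uhrf1, which carries Dnmt1 to replicated DNA, stood at 117 and 178 CPM in Tspan8negMHCIIlo and at 137 and 113 CPM in Tspan8negMHCIIhi. In Tspan8posMHCIIhi it stood at 28.9 and 32.5 CPM, and in Tspan8posMHCIIlo at 14.8 and 18.2 CPM. All 4 Tspan8pos libraries therefore lay far below all 4 Tspan8neg libraries, and the 2 Tspan8neg subsets overlapped each other. The Uhrf1 gene (ENSMUSG00000001228) spans chr17:56303321-56323486 on the plus strand of GRCm38.

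Dnmt1, the maintenance methyltransferase (ENSMUSG00000004099, chr9:20907209-20959888, minus strand), stood at 195 and 223 CPM in Tspan8negMHCIIlo and at 105 and 94.2 CPM in Tspan8negMHCIIhi. It stood at 62.5 and 75.6 CPM in Tspan8posMHCIIhi and at 72 and 96 CPM in Tspan8posMHCIIlo. Dnmt1 was thus highest in the Tspan8negMHCIIlo libraries, and the libraries of Tspan8negMHCIIhi and Tspan8posMHCIIlo overlapped.

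Of the de novo methyltransferases, Dnmt3a (ENSMUSG00000020661, chr12:3806007-3914443, plus strand) was nearly flat, at 105 and 120, 124 and 108, 96 and 88.2, and 86.8 and 91.3 CPM in Tspan8negMHCIIlo, Tspan8negMHCIIhi, Tspan8posMHCIIhi and Tspan8posMHCIIlo. Dnmt3b (ENSMUSG00000027478, chr2:153649450-153687730, plus strand) stood at 17.1 and 25.9 CPM in Tspan8negMHCIIlo, 16.6 and 12.8 CPM in Tspan8negMHCIIhi, 4.78 and 8.33 CPM in Tspan8posMHCIIhi and 3.3 and 5.05 CPM in Tspan8posMHCIIlo. Every Tspan8pos library was below every Tspan8neg library for both genes, by a small margin for Dnmt3a and a large one for Dnmt3b.

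Dnmt3l, which has no catalytic activity and stimulates the de novo enzymes in germ cells, had a different profile (ENSMUSG00000000730, chr10:78041947-78063622, plus strand). It stood at 47 and 38.6 CPM in Tspan8negMHCIIhi and at 10.6 and 12.2 CPM in Tspan8posMHCIIhi. In Tspan8negMHCIIlo it had 6 and 10 counts, or 1.69 and 2.36 CPM, and in Tspan8posMHCIIlo 1 and 3 counts, at or under the floor. The MHCIIhi libraries were thus above the MHCIIlo libraries on both sides of the Tspan8 gate.

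Among the TET genes, Tet1 (ENSMUSG00000047146, chr10:62804570-62908996, minus strand) stood at 23.3 and 23.6 CPM in Tspan8negMHCIIlo, 17.3 and 14.2 CPM in Tspan8negMHCIIhi, 4.18 and 4.47 CPM in Tspan8posMHCIIhi and 1.1 and 4.64 CPM in Tspan8posMHCIIlo. The value of 1.1 CPM rests on 2 counts in the shallowest library, with an exact Poisson 95% interval of 0.133 to 3.97 CPM that covers counting error only. Tet1 was low in all Tspan8pos libraries, and its replicates in Tspan8posMHCIIlo differed 4.22-fold, the widest gap between replicates among the 8 genes.

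Tet2 and Tet3 were the TET genes that stayed high in every subset. Tet2 (ENSMUSG00000040943, chr3:133463679-133545139, minus strand) stood at 64 and 65.3 CPM in Tspan8negMHCIIlo, 107 and 95.5 CPM in Tspan8negMHCIIhi, 104 and 91.4 CPM in Tspan8posMHCIIhi and 106 and 100 CPM in Tspan8posMHCIIlo. Tet3 (ENSMUSG00000034832, chr6:83362373-83459084, minus strand) stood at 117 and 120, 84.4 and 70.4, 139 and 118, and 146 and 150 CPM in the same order. Tspan8negMHCIIlo was the low subset for Tet2 and Tspan8negMHCIIhi the low subset for Tet3.

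**Figure D1:**
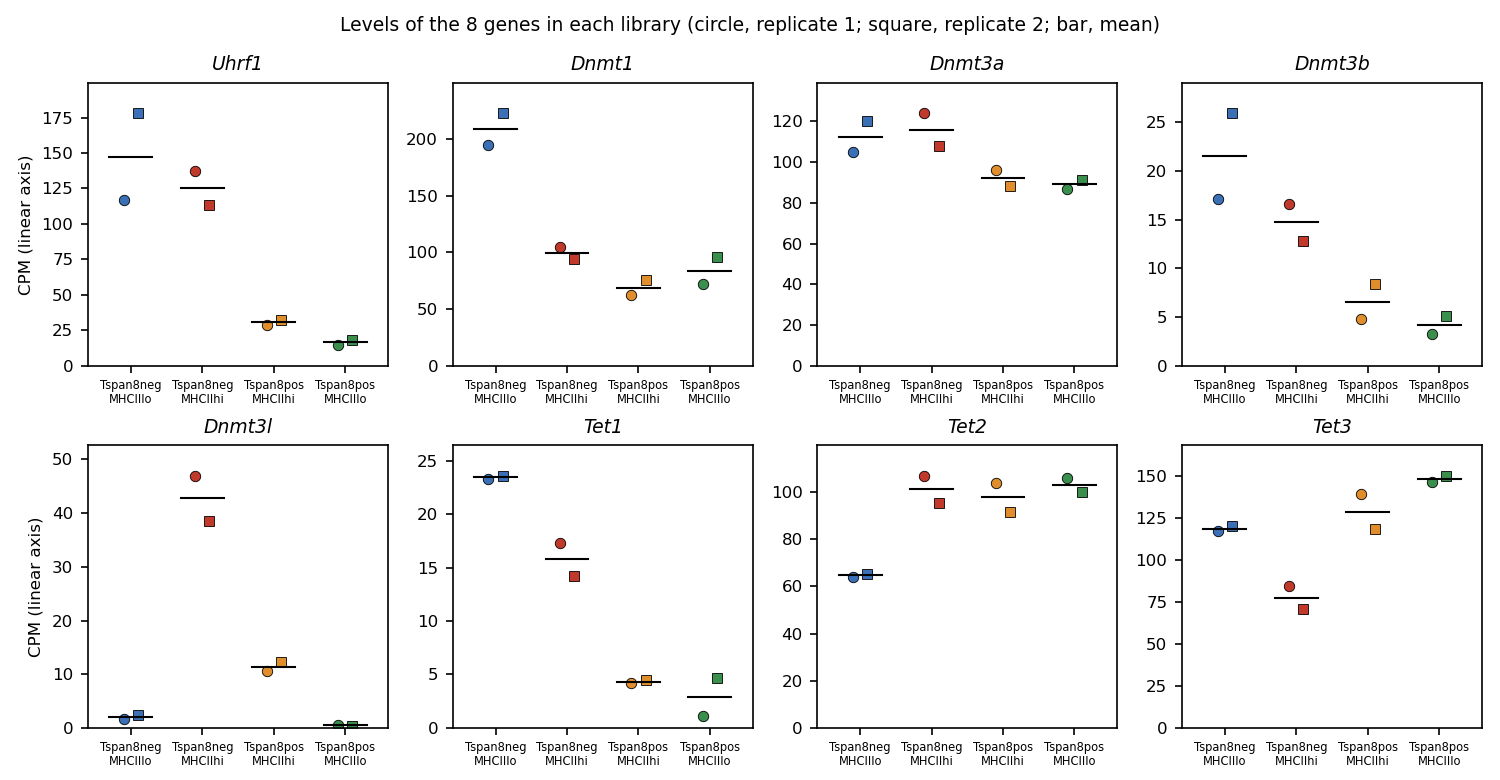
Level of each of the 8 genes (CPM, linear axes that start at 0 and differ between panels) in the 4 mTEC subsets; circles are replicate 1, squares replicate 2 and bars the mean of both. Uhrf1, Dnmt3b and Tet1 are low in both Tspan8pos subsets, Dnmt1 is high in Tspan8negMHCIIlo, Dnmt3l is high in Tspan8negMHCIIhi, and Dnmt3a, Tet2 and Tet3 stay between 64 and 150 CPM.

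Ratios of the highest to the lowest subset mean ranked the genes from variable to stable. The ratio was 8.93 for Uhrf1, 8.17 for Tet1, 5.16 for Dnmt3b and 3.03 for Dnmt1. The place of Tet1 rested on Tspan8posMHCIIlo, since its ratio was 5.42 without replicate 1 of that subset and 21.3 without replicate 2. It was 1.91 for Tet3, 1.6 for Tet2 and 1.3 for Dnmt3a. For Dnmt3l, whose lowest subset was at the floor, the pooled 527 counts of Tspan8negMHCIIhi against 4 counts of Tspan8posMHCIIlo gave a 95.5-fold ratio with a 95% counting interval of 37.1 to 352.

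To show what DNA lies before the start sites of genes with these different profiles, RefSeq promoter windows (GRCm38.p6, 250 bases before to 50 bases after a start site) were read for all 8 genes, and the 250 bases before the start are printed for genes that were low in Tspan8pos cells (Uhrf1, Dnmt3b), stable (Tet2) or high in MHCIIhi cells (Dnmt3l). Windows that contained annotated exon bases before the start, as those of Tet1 and Tet3 did, were not printed, though they stayed in the search below. Capitals mark CpG dinucleotides, the substrate of the enzymes themselves.
Uhrf1, chr17:56304063-56304312, plus strand: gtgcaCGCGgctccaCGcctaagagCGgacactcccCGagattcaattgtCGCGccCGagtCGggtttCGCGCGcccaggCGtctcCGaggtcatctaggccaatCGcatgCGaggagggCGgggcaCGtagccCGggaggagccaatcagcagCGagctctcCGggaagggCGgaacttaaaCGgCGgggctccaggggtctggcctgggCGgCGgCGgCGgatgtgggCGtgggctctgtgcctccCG
Dnmt3b, chr2:153649199-153649448, plus strand: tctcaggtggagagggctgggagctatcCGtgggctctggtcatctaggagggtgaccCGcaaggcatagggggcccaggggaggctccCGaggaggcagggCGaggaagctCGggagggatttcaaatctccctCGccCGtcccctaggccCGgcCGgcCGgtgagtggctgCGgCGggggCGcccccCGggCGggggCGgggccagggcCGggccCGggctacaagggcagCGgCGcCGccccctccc
Tet2, chr3:133544391-133544640, minus strand: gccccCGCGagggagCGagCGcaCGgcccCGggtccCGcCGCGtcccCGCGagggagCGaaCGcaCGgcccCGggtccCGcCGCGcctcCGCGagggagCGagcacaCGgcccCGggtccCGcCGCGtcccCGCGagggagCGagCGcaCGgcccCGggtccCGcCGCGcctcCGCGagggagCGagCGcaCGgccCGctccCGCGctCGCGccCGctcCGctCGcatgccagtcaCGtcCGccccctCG
Dnmt3l, chr10:78049592-78049841, plus strand: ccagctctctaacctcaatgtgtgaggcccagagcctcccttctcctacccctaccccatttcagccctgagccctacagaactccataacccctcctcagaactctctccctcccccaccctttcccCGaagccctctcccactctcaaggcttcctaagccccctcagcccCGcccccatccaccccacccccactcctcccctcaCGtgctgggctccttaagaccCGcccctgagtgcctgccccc

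These stretches held 30 CpG for Uhrf1, 21 for Dnmt3b, 51 for Tet2 and 4 for Dnmt3l, against a median of 6 over all 32851 windows. Uhrf1 exceeded 94.1% of the windows, Dnmt3b 83.7%, Tet2 99.9% and Dnmt3l 37.8%. The CpG-rich stretches therefore belonged both to genes that were low in Tspan8pos cells and to a gene that was not. Another Uhrf1 window, not printed, held 10 CpG before its start and exceeded 62.2% of the windows. The Dnmt3b stretch ends just before the annotated gene, whereas those of Uhrf1, Tet2 and Dnmt3l lie inside the annotated gene spans without touching an exon, ahead of internal start sites. Methylation of these stretches was not measured in the data used here.

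E2F factors, which act on genes of DNA replication, bind the words TTTCCCGC, TTTCGCGC, TTTGCCGC and TTTGGCGC, and these were searched on both strands of all windows. Each word contains a CpG and so overlaps the marked dinucleotides. At least 1 word occurred in 2.26% of all windows. Uhrf1 held TTTCGCGC starting 185 bases before the start site printed above. A Dnmt1 window at chr9:20952574-20952873 held TTTCGCGC on the other strand, 219 bases before its start site, and TTTGGCGC just after it. This Dnmt1 window has 166 annotated Dnmt1 exon bases before its start. The other windows of Uhrf1 and Dnmt1 held no word. No word was found in the windows of the other 6 genes, which says only that these letters are absent there.

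The comparison of Tspan8pos with Tspan8neg cells in MHCIIlo mTECs asked how the enzymes differ along the Tspan8 gate when MHCII is low. Uhrf1, Tet1, Dnmt3b and Dnmt1 were lower in Tspan8posMHCIIlo, and no gene of the 8 was called higher. Uhrf1 fell by 3.11 on the log2 scale (SE 0.23, edgeR adjusted p = 2.25e-06), Tet1 by 2.69 (SE 0.39, adjusted p = 0.000253) and Dnmt3b by 2.25 (SE 0.38, adjusted p = 0.000765). Dnmt1 fell by 1.29 (SE 0.17, adjusted p = 0.000138). The 4 of 8 genes called stand beside 21.4% of all genes called in this comparison, and the 4 of 8 called lower beside 9.34%. The replicates of the 2 subsets did not overlap for any of the 8 genes, 6 lower and 2 higher, which 67.8% of all genes shared. The median log2 fold change of the 8 genes was -1.72, against -0.029 over all genes tested.

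Dnmt3l had 16 pooled counts in Tspan8negMHCIIlo against 4 in Tspan8posMHCIIlo, a 4.69-fold ratio with a counting interval of 1.51 to 19.3, and was not called (adjusted p = 0.0113). Dnmt3a differed by -0.33 (95% interval -0.65 to -0.01, adjusted p = 0.09). Tet2 was 0.67 higher in Tspan8posMHCIIlo (SE 0.14, adjusted p = 0.00316), past the p threshold and short of the fold limit, and Tet3 differed by 0.32 (95% interval 0 to 0.64, adjusted p = 0.103). For the count of genes higher, an unadjusted p under 0.05 was reached by 1 gene, Tet2, and DESeq2 called 0.

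Markers of other cells moved in both directions in the same comparison. Of 6 myeloid and dendritic markers tested, 2 were called higher and 1 lower in Tspan8posMHCIIlo. Their list summed to 61.2 and 129 CPM in Tspan8negMHCIIlo and to 217 and 216 CPM in Tspan8posMHCIIlo. Of 5 B cell markers, 1 was called higher and 1 lower. In contrast, 6 of 12 thymocyte markers and 4 of 6 cortical epithelial markers were called lower and 0 higher in either list. There DESeq2 and an unadjusted p under 0.05 also gave 0 higher. Without replicate 2 of Tspan8negMHCIIlo these counts were 5 and 2, and their part in the result was not tested. Without that library the log2 fold changes were -2.76 for Uhrf1, -2.66 for Tet1, -1.91 for Dnmt3b and -1.18 for Dnmt1, and all 4 genes were called. Without replicate 2 of Tspan8posMHCIIlo, which leaves only the shallowest library of that subset, Dnmt3b was at -2.7 with an adjusted p of 0.0106 and was not called, and Tet1 was at -4.38.

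In MHCIIhi mTECs the Tspan8 comparison gave Uhrf1, Dnmt3l and Tet1 lower in Tspan8pos cells. Uhrf1 fell by 2.02 (SE 0.21, adjusted p = 2.7e-05), Dnmt3l by 1.91 (SE 0.23, adjusted p = 8.53e-05) and Tet1 by 1.85 (SE 0.37, adjusted p = 0.00233). The 3 of 8 genes called, all lower, stand beside 18.5% of all genes called and 7.45% called lower. The replicates did not overlap for 7 of 8 genes, Tet2 being the exception, beside 73.8% of all genes. The median log2 fold change of the 8 genes was -0.84, against -0.027 over all genes tested. None of the 12 thymocyte markers tested was called here by edgeR or DESeq2, 0 had an unadjusted p under 0.05, and their summed level was 80.7 and 176 CPM in Tspan8negMHCIIhi and 86.8 and 138 CPM in Tspan8posMHCIIhi. The summed fibroblast and endothelial markers were 179 and 178 CPM against 60.3 and 58.5 CPM, with 2 of 7 called lower in Tspan8posMHCIIhi (3 by DESeq2), and the summed B cell markers were 41.4 and 56.3 CPM against 24.9 and 29.5 CPM, with 1 of 5 called lower (0 by DESeq2). Their part in the result was not tested.

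The methyltransferases with catalytic activity did not pass in MHCIIhi cells. Dnmt1 differed by -0.53 (95% interval -0.9 to -0.15, adjusted p = 0.0296), Dnmt3a by -0.33 (-0.64 to -0.02, adjusted p = 0.0854) and Dnmt3b by -1.16 (-1.93 to -0.38, adjusted p = 0.023). Tet3 was 0.73 higher in Tspan8posMHCIIhi (SE 0.14, adjusted p = 0.00221), short of the fold limit, and Tet2 differed by -0.05 (-0.35 to 0.25, adjusted p = 0.814). Tet1 lost its call when either replicate of Tspan8posMHCIIhi or replicate 1 of Tspan8negMHCIIhi was left out, with adjusted p-values of 0.022 to 0.0282 and 0.0185 and log2 fold changes of -1.89 to -1.78 and -1.79. Dnmt3b was called at -1.14 (adjusted p = 0.00964) without replicate 2 of Tspan8negMHCIIlo, and at -1.13 (adjusted p = 0.0083) without replicate 1 of that subset.

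Whether the Tspan8 difference itself depended on MHCII was tested with the interaction term, the log2 difference in MHCIIlo minus that in MHCIIhi. edgeR and DESeq2 each called 0 of the 8 genes, against 4.6% of all genes called by edgeR, and 3 genes had an unadjusted p under 0.05. These were Uhrf1 at -1.09 (SE 0.31, adjusted p = 0.0441), Tet2 at 0.72 (SE 0.2, adjusted p = 0.037) and Dnmt1 at -0.76 (SE 0.24, adjusted p = 0.0625). The Uhrf1 interaction depended on the Tspan8negMHCIIlo library used: it was -0.75 (adjusted p = 0.0564) without replicate 2, the library that stood apart, and -1.38 (adjusted p = 0.00194), a call, without replicate 1. For the other 5 genes the term lay between -1.1 for Dnmt3b (95% interval -2.24 to 0.05) and 0 for Dnmt3a (-0.44 to 0.44).

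**Figure D2:**
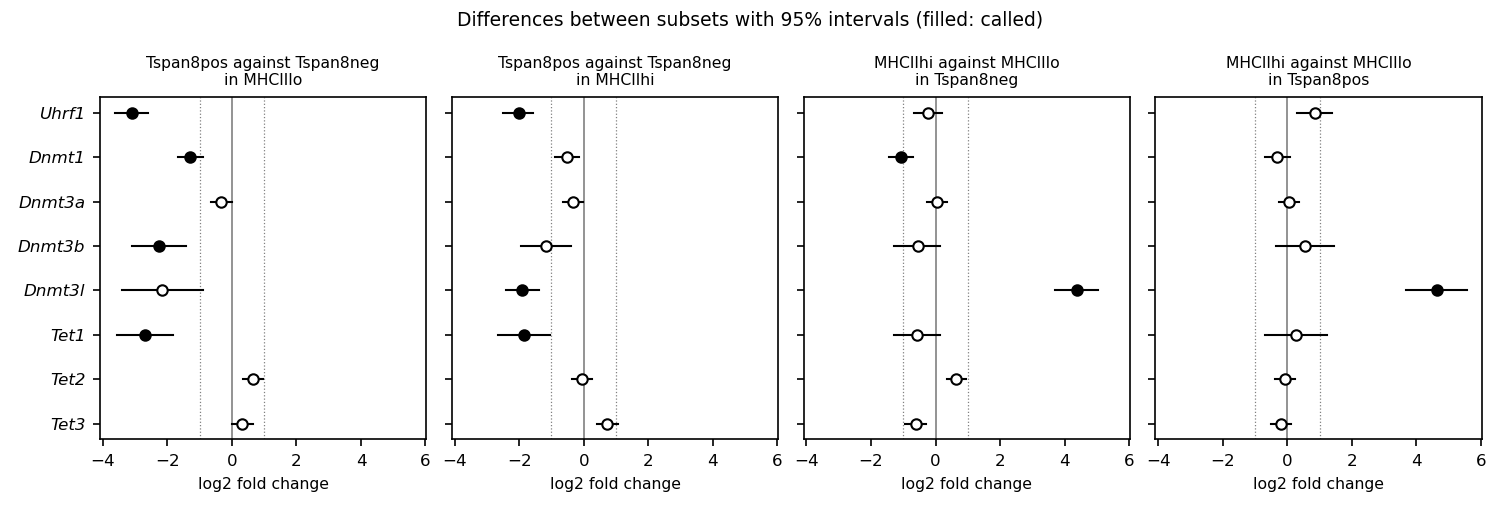
Log2 fold changes of the 8 genes (points) with 95% intervals (lines) in the comparisons of Tspan8pos with Tspan8neg cells and of MHCIIhi with MHCIIlo cells, from edgeR; filled points are called and dotted lines mark the fold limit of 1. Uhrf1 and Tet1 lie left of the limit in both Tspan8 panels, and Dnmt3l lies at 4.37 and 4.62 in the MHCII panels.

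MHCIIhi and MHCIIlo cells were compared within the Tspan8neg gate to follow the enzymes along MHCII. Dnmt3l was higher by 4.37 (SE 0.3, adjusted p = 2.34e-06) in Tspan8negMHCIIhi, where its pooled counts stood 20.4-fold above those of Tspan8negMHCIIlo (counting interval 12.4 to 35.9). Dnmt1 fell by 1.07 (SE 0.17, adjusted p = 0.000438). These 2 of 8 calls stand beside 22.7% of all genes called, and 6 of 8 genes without overlap (all but Dnmt3a and Uhrf1) beside 72.1%. Tet2 was 0.64 higher (SE 0.14, adjusted p = 0.00347) and Tet3 differed by -0.62 (SE 0.15, adjusted p = 0.00548), both short of the fold limit, so that 4 of 8 genes passed the p threshold at any size, beside 29.4% of all genes. Of 6 myeloid and dendritic markers tested, 3 were called higher and 0 lower in Tspan8negMHCIIhi (4 and 0 by DESeq2). The summed level of the 7 listed was 61.2 and 129 CPM in Tspan8negMHCIIlo and 377 and 430 CPM in Tspan8negMHCIIhi. The part of such cells in the Dnmt3l difference was not tested.

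The Dnmt1 call in the Tspan8neg comparison was close to the fold limit. It was -0.98 (adjusted p = 0.000598) without replicate 2 of Tspan8negMHCIIlo, the library with the highest thymocyte marker sum, and -0.9 (adjusted p = 0.0147) without replicate 2 of Tspan8negMHCIIhi. DESeq2 gave -0.99 and so no call. Of the 12 thymocyte markers tested, 9 were called lower in the same comparison. Without the first of these libraries Uhrf1 was at 0.08, Dnmt3b at -0.24 and Tet1 at -0.58, and none of these 3 was called with all libraries either (-0.24, -0.56 and -0.58, adjusted p = 0.347, 0.187 and 0.172).

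Within the Tspan8pos gate Dnmt3l was the only 1 of the 8 genes called between MHCIIhi and MHCIIlo cells, higher by 4.62 (SE 0.43, adjusted p = 4.5e-05), beside 7.21% of all genes called, and 3 of 8 genes did not overlap (Dnmt3l, Tet3 and Uhrf1), beside 58.1%. Its pooled 113 counts in Tspan8posMHCIIhi against 4 in Tspan8posMHCIIlo gave a 26-fold ratio with a counting interval of 9.87 to 97. Uhrf1 was 0.85 higher in Tspan8posMHCIIhi (95% interval 0.31 to 1.38, adjusted p = 0.0354). Intervals of the other 6 genes reached from -0.7 to 1.43. Of 6 myeloid and dendritic markers tested, 1 was called higher and 0 lower in Tspan8posMHCIIhi (2 and 0 by DESeq2). Their list summed to 217 and 216 CPM in Tspan8posMHCIIlo and to 464 and 486 CPM in Tspan8posMHCIIhi. The part of such cells in the Dnmt3l difference was not tested here either.

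The order of the subsets followed from these comparisons and from the remaining pairs. Uhrf1 and Tet1 each formed a high pair, the Tspan8neg subsets, and a low pair, the Tspan8pos subsets, and no call was made within a pair. For Uhrf1 the Tspan8pos replicates did not overlap, with Tspan8posMHCIIhi above Tspan8posMHCIIlo at an adjusted p of 0.0354, whereas the other within-pair differences of the 2 genes had adjusted p-values of 0.172 to 0.748. For Dnmt3b no neighbours in the order Tspan8negMHCIIlo, Tspan8negMHCIIhi, Tspan8posMHCIIhi, Tspan8posMHCIIlo differed by a call, while subsets further apart did, by -1.72 between Tspan8posMHCIIhi and Tspan8negMHCIIlo (adjusted p = 0.00218) and by -1.69 between Tspan8posMHCIIlo and Tspan8negMHCIIhi (adjusted p = 0.00341). The first of these calls was lost without replicate 2 of Tspan8negMHCIIlo (-1.38, adjusted p = 0.0104) or replicate 1 of Tspan8posMHCIIhi (-1.36, adjusted p = 0.0297), and the other without replicate 1 of Tspan8negMHCIIhi (-1.62, adjusted p = 0.0198) or either replicate of Tspan8posMHCIIlo (-1.53 and -2.13, adjusted p = 0.0208 and 0.0255). Dnmt1 separated Tspan8negMHCIIlo from the other 3 subsets, with -1.6 in Tspan8posMHCIIhi (adjusted p = 2.56e-05, or -1.49 without replicate 2 of Tspan8negMHCIIlo), and Tspan8posMHCIIlo and Tspan8negMHCIIhi differed by -0.22 (95% interval -0.6 to 0.16).

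For Dnmt3l the order was Tspan8negMHCIIhi, Tspan8posMHCIIhi, Tspan8negMHCIIlo and Tspan8posMHCIIlo, with a call at each step (2.46 from Tspan8negMHCIIlo to Tspan8posMHCIIhi, adjusted p = 0.000121, and 2.74 without replicate 2 of Tspan8negMHCIIlo) except the last. After thinning all libraries to the smallest total, the step from Tspan8negMHCIIlo to Tspan8posMHCIIhi was 1.83 with an adjusted p of 0.0445 and was not called. Dnmt3a was not called in any of the 6 pairs, and its smallest adjusted p was 0.0476, for -0.37 between Tspan8posMHCIIlo and Tspan8negMHCIIhi. Tet2 differed past the p threshold, short of the fold limit, between Tspan8negMHCIIlo and each other subset, by 0.6 to 0.67, and its other pairs had adjusted p-values of 0.781 to 0.897. Tet3 did so between Tspan8negMHCIIhi and each other subset, and its largest difference was 0.94 (SE 0.15, adjusted p = 0.000292), with Tspan8posMHCIIlo higher. None of these Tet2 and Tet3 pairs passed the p threshold in every fit that left out 1 library. In those fits the Tet2 differences lay between 0.52 and 0.82, and the largest Tet3 difference between 0.71 and 0.97. Tspan8negMHCIIhi stayed the lower subset of each Tet3 pair. In the 2 remaining pairs, 4 of 8 genes were called between Tspan8posMHCIIlo and Tspan8negMHCIIhi, beside 29.3% of all genes, and 5 of 8 between Tspan8posMHCIIhi and Tspan8negMHCIIlo, beside 24.7%.

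Levels can be compared between genes only per length, on the TPM scale, which divides counts by the length of a gene's merged exons and sets every library to one total. On that scale Uhrf1 and Dnmt1 were the leading transcripts in Tspan8negMHCIIlo, at 115 ± 36.6 and 93.7 ± 11.6 TPM (SD, n = 2). In Tspan8posMHCIIlo Dnmt1 had the highest mean, 35.3 ± 7.9 TPM, followed by Tet3 at 27.4 ± 1.19 TPM. Tet2 stood at 18.9 ± 0.299, Dnmt3a at 16.6 ± 0.964 and Uhrf1 at 12 ± 1.97 TPM. Tet1 never exceeded 5.01 ± 0.181 TPM, its mean in Tspan8negMHCIIlo. Dnmt3l, at 48.9 ± 7.21 TPM in Tspan8negMHCIIhi, had a mean near that of Dnmt1 in the same subset, 46.2 ± 3.99 TPM. Exon lengths from the longest transcript in place of merged exons raised the values of Dnmt3a, Dnmt3l, Tet2 and Tet3. Dnmt3l in Tspan8negMHCIIhi was then at 63.5 TPM. In Tspan8posMHCIIlo Tet3 was then at 33.6 ± 1.43 TPM, near Dnmt1 at 35.5 ± 7.91 TPM, so their order is uncertain.

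Within each family the balance of the transcripts changed between subsets. Of the summed TPM of Tet1, Tet2 and Tet3, Tet1 made up 12.2 and 12.1% in Tspan8negMHCIIlo, 8.92 and 8.53% in Tspan8negMHCIIhi, 1.83 and 2.27% in Tspan8posMHCIIhi and 0.471 and 1.97% in Tspan8posMHCIIlo. Tet2 was the largest share only in Tspan8negMHCIIhi, at 50.7 and 52.4%, and Tet3 was the largest in the other 3 subsets, at 55.3 to 59%. Of the summed TPM of Dnmt1, Dnmt3a and Dnmt3b, Dnmt1 made up 73.2 and 71.1% in Tspan8negMHCIIlo and 55.8 to 66.8% elsewhere, so it was the leading methyltransferase in all 8 libraries. Dnmt3a made up 17.5 and 16.9% in Tspan8negMHCIIlo and 28.2 to 38% elsewhere. Depth is shared by the genes of a library, but length is set per gene, so the shares depend on the lengths used. With longest-transcript lengths the mean share of Tet1 in Tspan8negMHCIIlo was 8.34% in place of 12.1%. That of Dnmt3a in Tspan8posMHCIIhi was 41.9% in place of 34.4%. The largest share of each family stayed with the same gene in every subset. These shares are a description without a test.

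**Figure D3:**
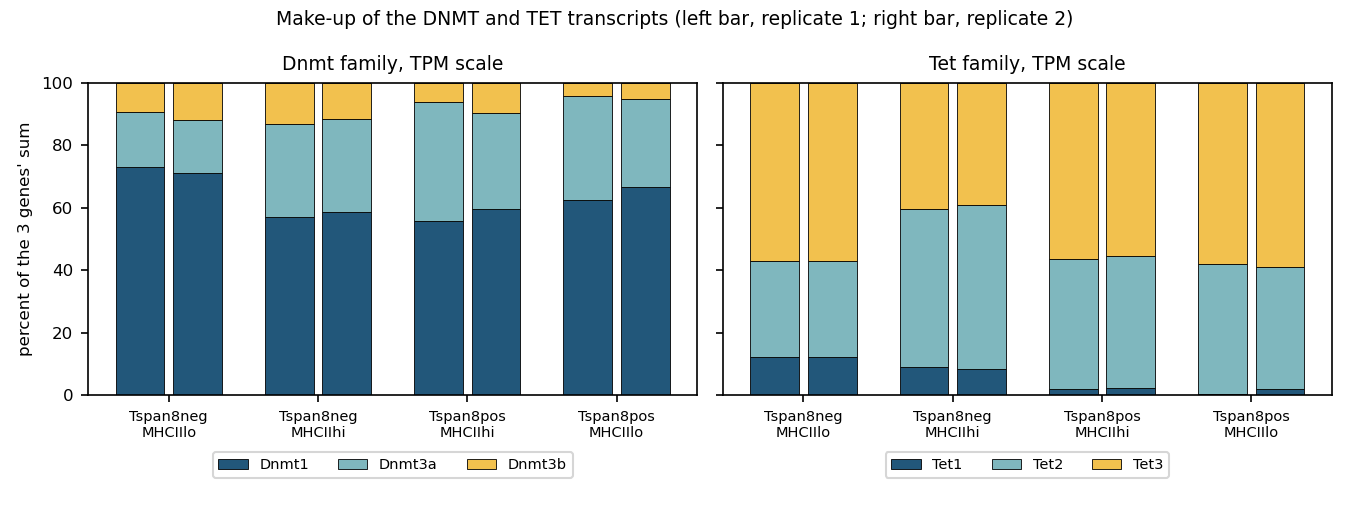
Share of each gene in the summed TPM-scale level of its family (percent, bars add up to 100) for Dnmt1, Dnmt3a and Dnmt3b and for Tet1, Tet2 and Tet3; the left bar of each pair is replicate 1 and the right bar replicate 2. Tet1 shrinks from 12.1 to 12.2% in Tspan8negMHCIIlo to at most 2.27% in the Tspan8pos libraries.

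Uhrf1, Dnmt1 and several of their partners act at replicating DNA, so the 8 genes were set against a list of 15 genes of S phase and mitosis, which includes Mcm2 to Mcm7, Rrm2, Mki67 and Ccnb1. All 15 were called lower in Tspan8posMHCIIlo than in Tspan8negMHCIIlo, with a median log2 fold change of -2.69, and 14 of 15 were called lower in Tspan8posMHCIIhi than in Tspan8negMHCIIhi, with a median of -1.78, beside 9.34% and 7.45% of all genes called lower. Their summed level was 1090 and 1580, 1030 and 939, 265 and 294, and 203 and 275 CPM in Tspan8negMHCIIlo, Tspan8negMHCIIhi, Tspan8posMHCIIhi and Tspan8posMHCIIlo. Between MHCIIhi and MHCIIlo cells, 5 were lower in the Tspan8neg gate (1 lower and 1 higher without replicate 2 of Tspan8negMHCIIlo) and none was called in the Tspan8pos gate by edgeR or DESeq2, where 2 had an unadjusted p under 0.05. The part of cycling cells in the enzyme levels was not tested.

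The 8 genes were also expressed per 100 CPM of this list in the same library, where the highest library exceeded the lowest 2.02-fold for Uhrf1, 2.08-fold for Dnmt3b, 3.55-fold for Dnmt1 and 3.97-fold for Tet1. Dnmt3b held 1.36 to 2.83 CPM over the 8 libraries, and Tet1 held 1.49 to 2.15 CPM in 7 of them and 0.542 CPM in the library with 2 Tet1 counts. Uhrf1 held 10.8 to 13.3 CPM in the 6 libraries outside Tspan8posMHCIIlo, and 7.32 and 6.59 CPM in Tspan8posMHCIIlo. Dnmt1 held 17.9 and 14.1, 10.2 and 10, 23.6 and 25.7, and 35.5 and 34.8 CPM in Tspan8negMHCIIlo, Tspan8negMHCIIhi, Tspan8posMHCIIhi and Tspan8posMHCIIlo. The list sum that divides these values was lower in every Tspan8pos library, so a rise on this scale need not be a rise in CPM. In raw counts there were 130 and 120 Uhrf1 counts per 100 Dnmt1 counts in Tspan8negMHCIIhi, 59.9 and 79.6 in Tspan8negMHCIIlo, 46.2 and 43 in Tspan8posMHCIIhi, and 20.6 and 18.9 in Tspan8posMHCIIlo.

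**Figure D4:**
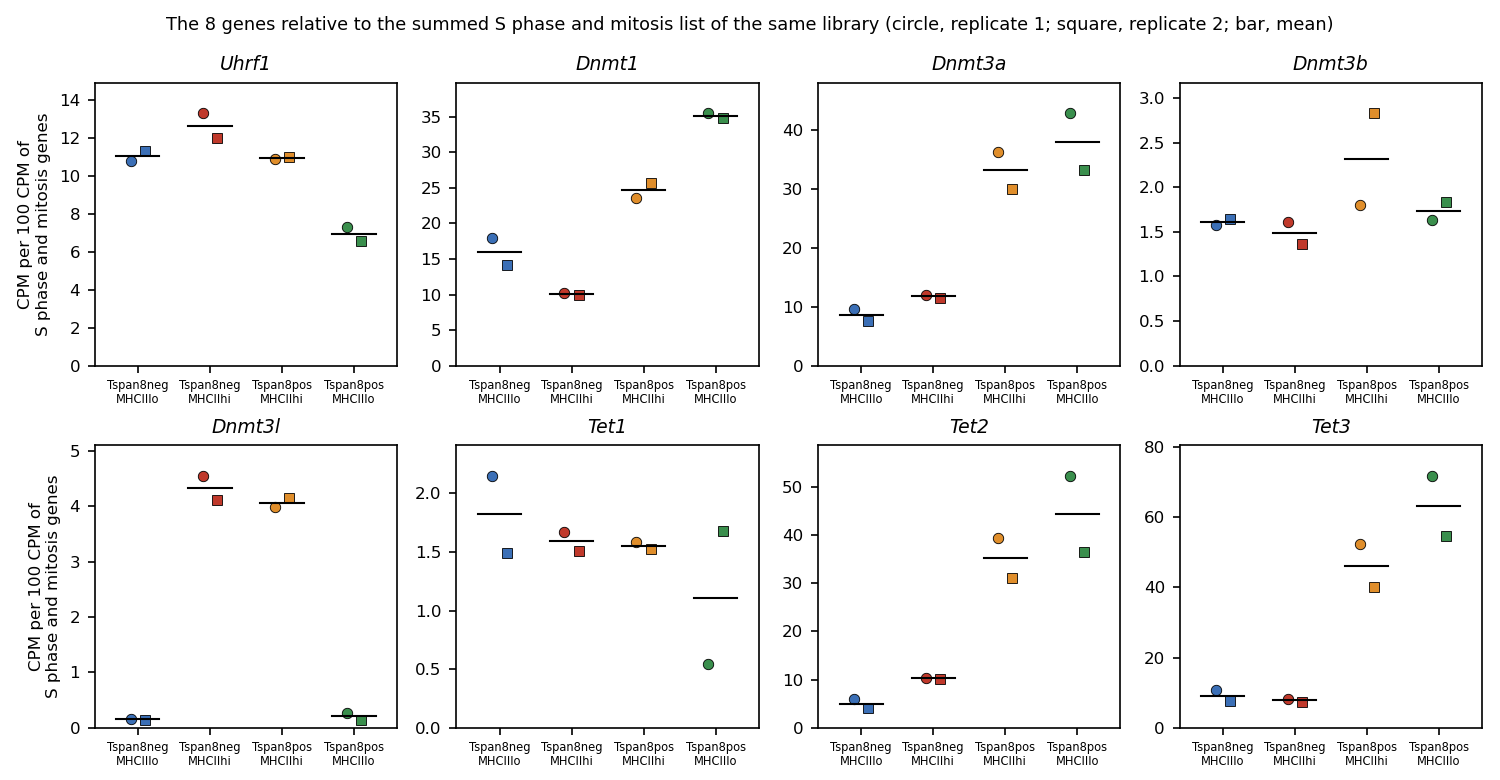
Level of each of the 8 genes per 100 CPM of the summed S phase and mitosis list of the same library (linear axes that start at 0 and differ between panels); circles are replicate 1, squares replicate 2 and bars the mean. Dnmt3b stays between 1.36 and 2.83, and Uhrf1 drops to 6.59 and 7.32 in Tspan8posMHCIIlo. Dnmt1, Dnmt3a, Tet2 and Tet3 lie higher in every Tspan8pos library than in every Tspan8neg library. The list sum is 203 to 294 CPM in Tspan8pos and 939 to 1580 CPM in Tspan8neg libraries. A gene with even CPM therefore lies higher in Tspan8pos libraries on this scale.

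Partners that recruit or assist the maintenance machinery were described from a list of 15 genes. Of these, 6 were called lower and 0 higher in Tspan8posMHCIIlo than in Tspan8negMHCIIlo, where the background was 9.34% lower, with 1 gene higher at an unadjusted p under 0.05 and 0 higher by DESeq2. The largest were Hells, a chromatin remodeler needed for DNA methylation, at -3.18 (adjusted p = 0.000252), its relatives in recruitment Cdca7l at -2.93 (adjusted p = 0.000256) and Cdca7 at -2.5 (adjusted p = 0.00097), and Trim28, the corepressor of KRAB zinc finger proteins, at -1.19 (adjusted p = 5e-05). Hells stood at 11.5 and 17 CPM in Tspan8negMHCIIlo and at 0.55 and 1.91 CPM in Tspan8posMHCIIlo. In MHCIIhi cells 2 of 15 were called lower in Tspan8pos cells, Hells at -2.19 (adjusted p = 0.00108) and the histone methyltransferase Suv39h1 at -1.22 (adjusted p = 0.00968), beside 7.45% of all genes called lower, and 4 were without replicate 2 of Tspan8negMHCIIlo.

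Dppa3, a maternal factor that displaces Uhrf1 from chromatin and so blocks maintenance methylation, was the member of that list with the profile of Dnmt3l. It stood at 27.9 and 26.9 CPM in Tspan8negMHCIIhi and at 13.1 and 13.4 CPM in Tspan8posMHCIIhi. It had 1 and 7 counts in Tspan8negMHCIIlo and 1 and 1 counts in Tspan8posMHCIIlo. Dppa3 was called higher in MHCIIhi cells in the Tspan8neg gate (4.72, SE 0.46, adjusted p = 1.97e-05) and in the Tspan8pos gate (5.75, adjusted p = 0.000129), and in pooled counts the ratios were 26.6 (counting interval 13.4 to 62.1) and 60.7 (16.5 to 506).

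Dnmt3l lies beside Aire, on the opposite strand, and the annotated genes share 1664 bases, of which 67 exon bases make up 2.24% of the Dnmt3l exons. Library preparation is described as strand-specific in the sample descriptions and as tagmentation of amplified cDNA in the study's methods, so reads of the shared bases cannot be assigned with certainty. Aire ranged from 2480 to 2660 CPM in Tspan8negMHCIIhi, from 402 to 541 in Tspan8posMHCIIhi, from 205 to 212 in Tspan8negMHCIIlo and from 14.8 to 35.4 CPM in Tspan8posMHCIIlo, so both genes were highest and lowest in the same subsets. Dnmt3l counts per 100 Aire counts were 1.77 and 1.56 in Tspan8negMHCIIhi, 2.63 and 2.25 in Tspan8posMHCIIhi, 0.794 and 1.15 in Tspan8negMHCIIlo, and 3.7 and 1.16 in Tspan8posMHCIIlo, the last pair from 1 and 3 Dnmt3l counts. The share of Dnmt3l counts that stems from Aire transcripts was not tested. Smaller overlaps were annotated for Dnmt3a with the antisense gene Dnmt3aos (133 exon bases, 0.799% of its exons) and for Tet2 with Gm42567 (43 bases).

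**Figure D5:**
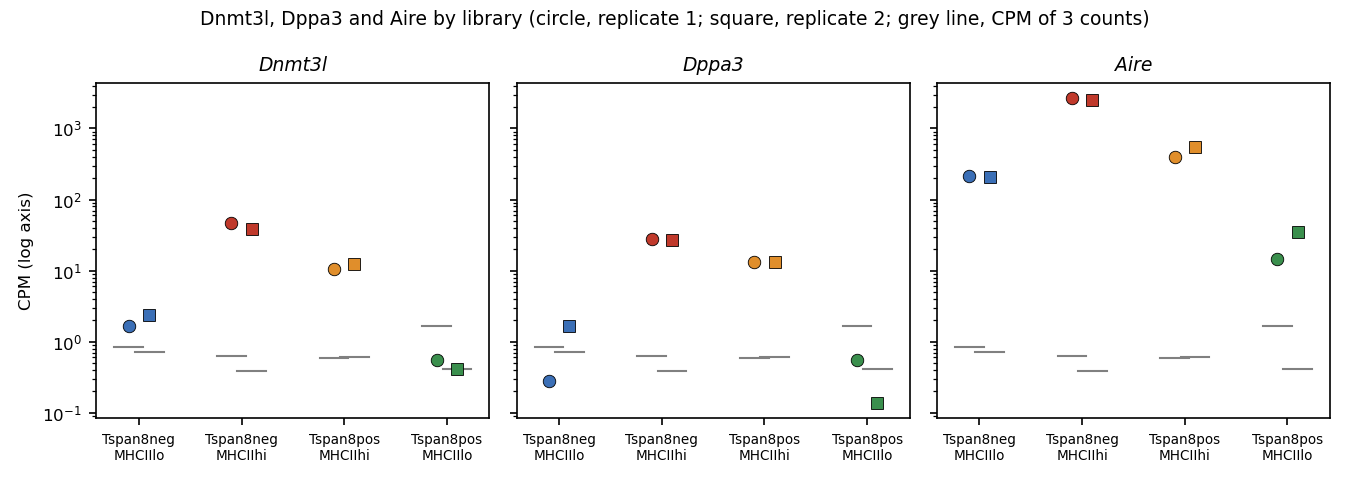
Levels of Dnmt3l, Dppa3 and Aire (CPM, shared log axis) in the 4 mTEC subsets; circles are replicate 1, squares replicate 2, and grey lines mark the CPM that 3 counts are worth in each library. Dnmt3l and Dppa3 lie above 10 CPM in the MHCIIhi libraries only, and Aire lies above the grey line in every library.

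Genes downstream of or beside the TET enzymes were described from 2 lists. Of 18 genes of active demethylation, base excision repair and cytidine deamination, 2 were higher and 5 lower in Tspan8posMHCIIlo than in Tspan8negMHCIIlo, and 1 higher and 3 lower in the MHCIIhi comparison, beside 21.4% and 18.5% of all genes called. The 4 calls in the MHCIIhi comparison, of 18 genes, are near that share. Apobec1, a cytidine deaminase best known for editing RNA, was higher in both, by 2.43 (adjusted p = 2.08e-06) and 1.1 (adjusted p = 0.000335), and stood at 33.7 and 33.5, 122 and 118, 291 and 222, and 202 and 162 CPM in Tspan8negMHCIIlo, Tspan8negMHCIIhi, Tspan8posMHCIIhi and Tspan8posMHCIIlo. The glycosylase Neil3 was lower in the MHCIIlo comparison, at -1.76 (adjusted p = 0.0053), and the stress gene Gadd45b in the MHCIIhi comparison, at -1.28 (adjusted p = 6.66e-05). Parp1, which senses DNA breaks, and Apex1, the main endonuclease at abasic sites, were lower in both, Parp1 by -1.74 and -1.34 and Apex1 by -1.55 and -1.18 (all 4 adjusted p at most 0.00107). Tdg, the glycosylase that removes oxidized 5-methylcytosine, was named after its values were seen: it stood between 61 and 80.6 CPM in all 8 libraries and was not called in any comparison of the 4 subsets.

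Of 11 partners and recruiters of the TET enzymes, 1 was called higher and 0 lower in the MHCIIlo comparison and 2 higher and 2 lower in the MHCIIhi comparison, again beside 21.4% and 18.5% of all genes, so the first count is below that share. For the 0 lower, 2 genes had an unadjusted p under 0.05 and DESeq2 called 0, and 1 was called lower without replicate 2 of Tspan8negMHCIIlo. Idh1, which makes the 2-oxoglutarate that TET enzymes consume, was higher in Tspan8pos cells in both, by 1.47 (adjusted p = 2.52e-05) and 1.89 (adjusted p = 2.77e-06). It stood at 33.4 and 27.8 CPM in Tspan8negMHCIIlo, 42 and 42.6 CPM in Tspan8negMHCIIhi, 157 and 157 CPM in Tspan8posMHCIIhi and 78.6 and 89.7 CPM in Tspan8posMHCIIlo. Idh2, its mitochondrial counterpart, was higher by 1.13 (adjusted p = 0.000114) in the MHCIIhi comparison, where the CpG island protein Kdm2b (-1.01, adjusted p = 0.00494) and its partner Bcor (-1.12, adjusted p = 6.66e-05) were lower.

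Proteins that read methylated CpG, together with subunits of complexes that act with them, were described from a list of 12 genes. A count over this list is therefore not one of readers alone. None of the 12 was called in either Tspan8 comparison by edgeR or DESeq2, beside 21.4% and 18.5% of all genes called by edgeR. In edgeR 7 and 4 had an unadjusted p under 0.05, and their median log2 fold changes were 0.01 and 0.08. Along MHCII in Tspan8neg cells, 2 of 12 were lower and 0 higher in MHCIIhi (0 higher also by DESeq2). This count is below the 22.7% of all genes called there. The 2 were Zbtb4 at -1.57 and the NuRD subunit Mbd2 at -1.44 (edgeR adjusted p = 2.73e-05 and 4.09e-05). Zbtb4 was also lower in MHCIIhi cells of the Tspan8pos gate, at -1.19 (adjusted p = 0.000422).

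Methyl groups reach DNA through the folate and methionine cycles, which were described from a list of 14 genes, 13 of them tested. In Tspan8posMHCIIlo 4 were lower and 0 higher than in Tspan8negMHCIIlo, and in Tspan8posMHCIIhi 2 were lower and 0 higher than in Tspan8negMHCIIhi, beside 9.34% and 7.45% of all genes called lower. The 4 were 3 without replicate 2 of Tspan8negMHCIIlo, where Shmt1 was at -0.97 (adjusted p = 0.0176). DESeq2 also called 0 higher in both, and 1 and 2 were higher at an unadjusted p under 0.05. Methionine synthase Mtr was at -2.19 (adjusted p = 0.000225) in MHCIIlo cells, Mthfd1 at -1.83 (adjusted p = 0.000233) and -1.03 (adjusted p = 0.00508), and Shmt2, the mitochondrial serine hydroxymethyltransferase, at -1.59 (adjusted p = 0.000145) and -1.82 (adjusted p = 4.94e-05). Along MHCII in Tspan8neg cells 4 were higher and 1 lower in MHCIIhi, or 3 and 0 without that library. These counts stand beside 22.7% of all genes called in that comparison with all libraries. The glycine methyltransferase Gnmt was higher by 2.74 (edgeR adjusted p = 0.00273) in the Tspan8neg gate. The liver enzyme Mat1a, which makes S-adenosylmethionine, was higher in MHCIIhi cells by 2.61 (adjusted p = 0.000111) in the Tspan8neg gate and 1.9 (adjusted p = 0.0025) in the Tspan8pos gate. Bhmt, another liver enzyme of this cycle, was listed at 0 in both Tspan8negMHCIIlo libraries and stood at 7.69 and 6.92 CPM in Tspan8negMHCIIhi.

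Genes whose promoters or control regions are known to depend on DNA methylation were read as well. Of 16 germline genes that methylation silences in somatic cells, 11 were in the table, 3 (Tdrd1, Tdrkh and Brdt) passed the filter on low counts, and none of these was called in any comparison by edgeR or DESeq2, with at most 1 at an unadjusted p under 0.05. These 3 were named after their values were seen, and Tdrkh had the highest level of them, between 1.1 and 6.6 CPM. The other germline genes in the table were not tested with all libraries, so the result covers these 3 only. The highest level among the untested was 3.08 CPM, for Ddx4 in Tspan8negMHCIIhi. Tex11 had 2.7 and 1.92 CPM there and 0 in both Tspan8negMHCIIlo libraries. Hormad1 peaked in Tspan8posMHCIIhi, at 0.61 CPM. Without replicate 2 of Tspan8negMHCIIlo 5 genes were tested. Their median log2 fold change from Tspan8negMHCIIhi to Tspan8posMHCIIlo was -2.4, against -0.72 for the 3. The absence of calls among the 3 does not hold for these 5 in that comparison. Of 20 imprinted genes, 19 were tested and 7 were lower and 0 higher in Tspan8posMHCIIlo than in Tspan8negMHCIIlo, with 2 higher at an unadjusted p under 0.05 and 0 by DESeq2, beside 9.34% of all genes called lower. Without replicate 2 of Tspan8negMHCIIlo 7 of 20 tested were lower. H19 had the largest of these differences, at -5.1 (adjusted p = 5.93e-06), from 75.8 and 164 CPM to 1.1 and 4.23 CPM, and was at -4.42 without that library. It was followed by Nnat, and then by Meg3 at -2.82 (adjusted p = 1.66e-05) and Grb10 at -2.65 (adjusted p = 1.23e-05). In MHCIIhi cells 4 imprinted genes were lower in Tspan8pos cells, beside 7.45% of all genes: Nnat, Grb10 at -2.05 (adjusted p = 4.11e-05), Ndn at -2 (adjusted p = 0.00517) and Dlk1 at -1.97 (adjusted p = 0.000121). The 1 higher gene, named after its values were seen, was the cell cycle inhibitor Cdkn1c at 1.33 (adjusted p = 3.44e-05).

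The genes with the most similar profiles over the 8 libraries, by Pearson's r of log2 CPM searched over the 11047 genes averaging 10 CPM or more, differed between the 8 genes. For Uhrf1 they were Cdca3 (0.995), Snd1 (0.994) and Mns1 (0.993), for Tet1 Clns1a (0.994), Pclaf (0.99) and Zfp451 (0.99), and for Dnmt3b Nup107 (0.988), Trim27 (0.984) and Gtf3a (0.984). For Dnmt1 they were Cep250 (0.994), Anapc5 (0.993) and Lrwd1 (0.991), and for Dnmt3l Chst1 (0.996), Irf8 (0.995) and Srgn (0.994). Closest to Dnmt3a were Nufip1, Tbl2 and Sephs1 (0.972 to 0.983), to Tet2 Sema7a, Tapbp and Sorl1 (0.97 to 0.972) and to Tet3 Ankrd11, Wipf2 and Bet1l (0.985 to 0.989). With 8 libraries in 4 subsets and this many genes searched, high values are found for every gene, so the names are a description only.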

How the data were processed

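RNA-seq of 8 libraries, 2 for each of 4 mTEC subsets, was used. Per the study's methods and the submitters' processing notes, the authors checked 54 bp single-end reads with FastQC, quantified transcripts with Salmon 1.8.0 on Gencode vM10 and analysed the data with DESeq2 1.30.0. The deposited table holds estimated counts per gene as whole numbers. The rounding step is not given in the sources used here, and neither is whether replicates are separate mice, so p-values measure only the spread between these samples.

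IDs were named from GENCODE vM21 on GRCm38 (25336 of 25466 matched). Genes passing filterByExpr (17006) were fitted with TMM and quasi-likelihood in edgeR 4.0.16 (R 4.3.3, limma 3.58.1), with 1 mean per subset, and p-values were adjusted by Benjamini-Hochberg over all of them. The common dispersion was 0.024. An exact permutation test of 2 against 2 libraries cannot go below p = 0.333. The script was tested on simulated counts. Alternatives were DESeq2 1.42.0 (test and size factors), other filters and thresholds, thinning to 1941518 counts, the compared libraries alone, a replicate block and leaving out each library. Counting intervals are exact 95% intervals and cover counting error only.

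The 8 genes and all gene lists were chosen with earlier results of these data known. Named were the 8 genes, list genes called in a described comparison (largest fold first, at most 4 per list and comparison), the 3 genes most like each of the 8, overlapping genes and markers. Promoter sequences came from RefSeq, where 8 of 8 genes matched a window. The result of 1 list gene is not reported here.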

Additional observations from a re-analysis of the deposited data

Results flagged for a closer look

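The Tspan8 difference was tested for dependence on MHCII in 106 genes of 8 lists. A called interaction (edgeR adjusted p under 0.01 and a log2 value of 1 or more in either direction) was found for 10, beside 4.6% of all genes. It is given as the log2 difference in MHCIIlo minus that in MHCIIhi. For H19, an imprinted noncoding RNA, the interaction was -5.84 (SE 0.55, adjusted p = 0.000244). It stood at 75.8 and 164 CPM in Tspan8negMHCIIlo, 27.2 and 30.6 in Tspan8negMHCIIhi, 45.2 and 51.4 in Tspan8posMHCIIhi and 1.1 and 4.23 in Tspan8posMHCIIlo. For Cdkn1c, an imprinted inhibitor of the cell cycle, it was -2 (SE 0.21, adjusted p = 0.00036), with 94.9 and 102, 82.8 and 87.5, 192 and 238, and 59.4 and 63.5 CPM in the same order. These 2 interactions were called in 8 of 8 fits that each left out 1 library.

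The other 8 were called in 2 or 3 of those 8 fits. Among imprinted genes, Igf2, a fetal growth factor, had -2.7 (SE 0.48, adjusted p = 0.00495) and Meg3 had -2.6 (SE 0.41, adjusted p = 0.00266). Among methyl-CpG readers, Mbd2 had -1.39 (SE 0.22, adjusted p = 0.00287), and its Tspan8 differences were -0.59 in MHCIIlo and 0.8 in MHCIIhi. The helicase subunits Mcm6 and Mcm7 had -1.5 (adjusted p = 0.00446) and -1.25 (adjusted p = 0.00801), with Tspan8 differences of -2.55 and -1.94 in MHCIIlo and of -1.05 and -0.69 in MHCIIhi. The stress gene Gadd45g had -1.27 (adjusted p = 0.00282), Apobec1 had 1.33 (adjusted p = 0.0057) and Bcor, a Polycomb partner, had 1.19 (adjusted p = 0.00315). Without single libraries their largest adjusted p-values ranged from 0.0196 for Meg3 to 0.0563 for Mcm7. The causes were not tested.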

How the results depend on the processing

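Of the log2 fold changes of the 8 genes over 7 comparisons, 470 kept direction and call under settings other than leaving out a library, 10 gained a call, 8 lost one and 7 reversed; leaving out libraries gave 421, 3, 11 and 13. The causes were not tested. The reversed values lay between -0.18 and 0.08. Not all began near 0, since the Tet3 interaction was -0.42 and Tet1 along MHCII in Tspan8pos was 0.26 in the main fit. Tet2 between Tspan8posMHCIIlo and Tspan8negMHCIIhi (0.03) was -0.02 with at least 10 counts in 4 libraries, -0.06 with DESeq2 size factors or its Wald test, -0.0068 with no filter and -0.07 in the 4 libraries alone. The interactions of Dnmt3a and Tet3 were -0.18 and 0.03 after thinning. Without single libraries, ranges were -0.15 to 0.08 for that Tet2 difference; -0.21 to 0.06 for Tet2 along Tspan8 in MHCIIhi; -0.06 to 0.23 for Dnmt3a and -0.52 to 0.08 for Uhrf1 along MHCII in Tspan8neg; -0.08 to 1.95 for Tet1 and -0.15 to 0.02 for Tet2 along MHCII in Tspan8pos; and -0.12 to 0.17 for Dnmt3a and -0.49 to 0.05 for Dnmt3l in the interaction.

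Thinning moved the genes called from 3143 to 2007 (Tspan8 in MHCIIhi), 3866 to 2315 (MHCII in Tspan8neg), 1226 to 597 (MHCII in Tspan8pos) and 783 to 335 (interaction). At an adjusted p under 0.05 the last of these were 1858 and 1754, and without a filter the interaction had 1267. Of the 8 genes, the MHCII comparison in Tspan8neg called 2, against 1 with DESeq2 size factors, DESeq2, the 4 libraries alone or thinning, and 4 with no fold limit. The interaction called 1 at 0.05, and Tspan8posMHCIIhi against Tspan8negMHCIIlo called 5, or 3 after thinning. Leaving out libraries gave 2273 to 3740 genes and 3 to 4 of the 8 (Tspan8 in MHCIIlo), 2045 to 3637 and 2 to 4 (MHCIIhi), 2360 to 3759 and 1 to 2 (MHCII in Tspan8neg), 427 to 1671 and 1 (Tspan8pos), 189 to 1385 and 0 to 1 (interaction), 3381 to 5539 and 3 to 4 (Tspan8posMHCIIlo against Tspan8negMHCIIhi) and 2989 to 4242 and 4 to 5 (Tspan8posMHCIIhi against Tspan8negMHCIIlo).

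Deviations of equally numbered libraries correlated at 0.00402 to 0.0924, none over 0.1, and equal numbers were not treated as pairs. Such correlations over all genes cannot exclude a difference that equally numbered libraries share in some genes. The summed thymocyte markers were higher in replicate 2 than in replicate 1 of every subset. Whether equally numbered libraries share mice is not stated. With the replicate block the interaction called 1236 genes against 783, and the number of the 8 genes called was the same in all 7 comparisons. Exon lengths from the longest transcript moved 19 of 32 TPM means by more than 1 SD. Depth limits Dnmt3l, Dppa3 and Tet1 in Tspan8posMHCIIlo, where replicate 1 was the shallowest library.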

Other observations

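Imprinted genes also differed along MHCII. In Tspan8pos cells 5 of 19 tested were higher in MHCIIhi and 0 lower (0 lower also by DESeq2 or at an unadjusted p under 0.05), beside 7.21% of all genes called. The largest were H19 at 3.79 (edgeR adjusted p = 0.000234), Igf2 at 2.83 (adjusted p = 0.000356), Dlk1 at 1.96 (adjusted p = 0.00258) and Cdkn1c at 1.8 (adjusted p = 2.29e-05). In Tspan8neg cells 4 were higher and 3 lower, beside 22.7% of all genes, with H19 at -2.05 (adjusted p = 0.00044) and Meg3 at -2.77 (adjusted p = 1.67e-05). H19 therefore had opposite signs in the 2 gates. Magel2 and Sgce, also called in the Tspan8neg gate, were close to the floor in 1 of the subsets: Magel2 stood at 0 and 0.472 CPM in Tspan8negMHCIIlo and 8.53 and 8.59 CPM in Tspan8negMHCIIhi, and Sgce at 7.86 and 3.3 CPM and 0.416 and 0.128 CPM.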
